A study of Mus musculus with 6 samples.

Results

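The genes described here encode the core of the microRNA (miRNA) silencing pathway: the 3 Tnrc6 genes (the GW182 family), the 4 Argonautes, and the processing genes Dicer1, Drosha and Dgcr8. They are 10 of the 54532 genes in the deposited expression table and were found there by gene name. The set was chosen by pathway with the bKO against control differences of these same libraries known, so every difference between genotypes given for a member is a description and carries no test. Poly(A)-selected RNA was sequenced from whole pancreatic islets (the hormone-secreting clusters within the pancreas) of mice aged 7 weeks. The 3 control libraries came from Ythdc1flox/flox mice, whose Ythdc1 gene carries loxP sites but is not deleted, and the 3 bKO libraries from Ythdc1-betaKO mice, in which Ythdc1 is knocked out in beta cells, the insulin-producing cells. The labels describe independent biological replicates, and the sources used here do not name the promoter that drives the deletion. The free-text descriptions of 2 bKO libraries name other Ythdc genes, while the genotype label of all 3 names Ythdc1.

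A miRNA is cut from its primary transcript in the nucleus by the microprocessor, made of the nuclease DROSHA and its RNA-binding partner DGCR8, and is cut again in the cytoplasm by DICER1. The mature strand is loaded into an Argonaute protein, which it guides to matching mRNAs. A TNRC6 protein binds the Argonaute through glycine-tryptophan repeats and recruits the PAN2-PAN3 and CCR4-NOT deadenylases, which shorten the poly(A) tail and silence the mRNA. In beta cells this pathway is needed for normal insulin production: loss of Dicer1 lowers insulin, and miR-375, an abundant islet miRNA, restrains insulin secretion. YTHDC1 reads the RNA mark N6-methyladenosine (m6A) in the nucleus and takes part in splicing and export. The comparison asks how islet mRNA levels differ when beta cells lack it.

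All 3 Tnrc6 genes were higher in the bKO libraries, Tnrc6a and Tnrc6c close to 3-fold and Tnrc6b by less, while no Argonaute was higher beyond the spread of the libraries. Levels are in FPKM (fragments per kilobase of the gene, adjusted for library size), and log2 fold changes are on the log2(FPKM + 1) scale with the standard error (SE) of the limma fit. Of the 10 members, 4 were past a limma adjusted p of 0.05 in the upward direction and 1 in the downward direction. Over all 15717 genes tested, 8.96% were past that threshold upward and 11.4% downward. In 4 members every bKO library lay above every control library and in 2 every bKO library lay below, against 18.5% and 21.6% of all tested genes. Nothing is read from these counts or from how they shift, because the same contrast was known when the members were chosen. Under the 14 alternative settings the first pair of counts was 3 to 4 and 0 to 2. Dgcr8 left it when any 1 library was left out, with no filter on low values and with the replicate number as a block in the fit (the replicate block). Dicer1 left it without control replicate 1, control replicate 2 or bKO replicate 1, with libraries scaled by their read totals (total scaling) and with the replicate block, and Ago1 entered it without bKO replicate 3 and with voom, limma's test for counts, on reads recovered from the FPKM.

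Tnrc6a, Tnrc6b and Tnrc6c were all higher in bKO, Tnrc6b by much less than the others. The stretch around the annotated start of each is shown, 250 bases before to 50 bases after it, on the plus strand of GRCm38.p6 from RefSeq. Capitals mark CCAAT and GGGCGG, the CCAAT box and the GC box, on either strand. The windows are chr7:123123635-123123934 for Tnrc6a, chr15:80711063-80711362 for Tnrc6b and chr11:117654039-117654338 for Tnrc6c.

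Tnrc6a: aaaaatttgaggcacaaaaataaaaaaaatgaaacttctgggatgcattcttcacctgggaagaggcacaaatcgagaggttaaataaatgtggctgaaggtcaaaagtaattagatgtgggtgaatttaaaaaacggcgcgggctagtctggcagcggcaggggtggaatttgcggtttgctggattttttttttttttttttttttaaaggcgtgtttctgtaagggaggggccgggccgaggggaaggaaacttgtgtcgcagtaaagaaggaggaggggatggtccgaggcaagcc

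Tnrc6b: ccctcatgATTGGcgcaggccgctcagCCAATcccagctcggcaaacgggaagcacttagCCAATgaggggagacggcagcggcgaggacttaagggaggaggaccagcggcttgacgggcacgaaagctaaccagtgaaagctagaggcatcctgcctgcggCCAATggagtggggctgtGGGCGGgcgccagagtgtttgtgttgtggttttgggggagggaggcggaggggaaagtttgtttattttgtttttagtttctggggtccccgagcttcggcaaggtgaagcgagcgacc

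Tnrc6c: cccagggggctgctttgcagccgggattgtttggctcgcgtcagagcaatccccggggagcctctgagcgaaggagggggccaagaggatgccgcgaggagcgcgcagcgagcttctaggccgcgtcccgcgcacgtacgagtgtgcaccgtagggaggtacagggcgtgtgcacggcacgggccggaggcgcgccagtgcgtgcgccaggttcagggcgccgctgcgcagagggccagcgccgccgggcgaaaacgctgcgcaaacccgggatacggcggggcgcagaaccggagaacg

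The 3 windows differed in G and C content, and no motif searched was in all 3. Other likeness between them was not examined. That of Tnrc6a was 44.7% G and C with 11 CG dinucleotides, that of Tnrc6b 59.7% with 18, and that of Tnrc6c 71.3% with 40, where the median of all 32851 RefSeq windows of 300 bases was 52.7% and 7. Tnrc6b held 4 matches to CCAAT and 1 to GGGCGG, and Tnrc6a and Tnrc6c held neither motif, which occurred in 37.4% and 35.7% of all windows. A further RefSeq start of Tnrc6b, with the window chr15:80798360-80798659, held 1 match to CACGTG (the E-box, found in 7.15% of windows). TGACGTCA (1.79% of windows) and TGACTCA (5.20%) were in none of the 11 windows of the 9 members with an entry, Ago2 being the member without one. The motifs were searched on both strands, and the matches shown in capitals do not overlap.

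**Figure D1:**
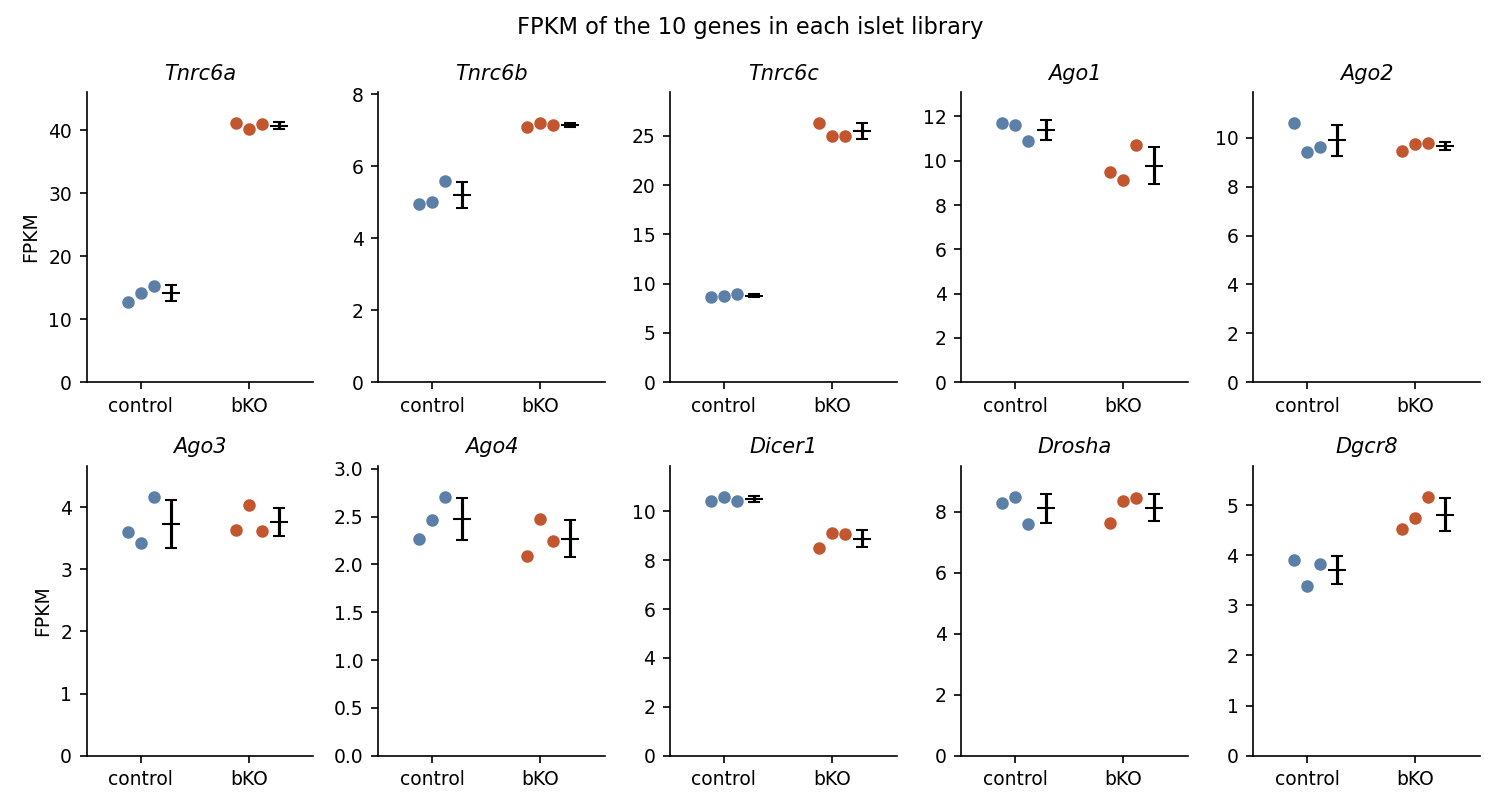
FPKM (vertical axes, each from 0) of the 10 genes in the 3 control and 3 bKO islet libraries; dots are libraries and the black mark is the mean with its SD. The bKO libraries of Tnrc6a lie at 40.1 to 41.1 FPKM against 12.7 to 15.3 in control, while Ago2, Ago3, Ago4 and Drosha overlap between groups.

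Tnrc6a (ENSMUSG00000052707, chromosome 7, 123123885 to 123195296, GRCm38), which encodes GW182 itself, measured 12.7, 14.2 and 15.3 FPKM in control and 41.1, 40.1 and 41 FPKM in bKO. The lowest bKO library was far above the highest control library. The mean went from 14.1 ± 1.3 to 40.7 ± 0.55 FPKM (SD, n = 3 per group), a ratio of 2.89 and a log2 fold change of 1.47 (SE 0.065), which ranked 51 from the highest among the 15717 tested genes. These values rest on 2602 to 3144 reads in control and 9236 to 10036 in bKO, as recovered from the FPKM. Its level stood at percentile 80.5 of the tested genes in control and at percentile 95.4 in bKO.

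Tnrc6c (ENSMUSG00000025571, chromosome 11, 117654289 to 117763439) was at 8.63, 8.77 and 8.96 FPKM in control and at 26.3, 25 and 25 FPKM in bKO. Both groups were tight and lay far apart. The mean went from 8.79 ± 0.17 to 25.5 ± 0.77 FPKM, a ratio of 2.90, and the log2 fold change of 1.43 (SE 0.042) ranked 59 from the highest. Tnrc6b (ENSMUSG00000047888, chromosome 15, 80711313 to 80941085) was at 4.94, 5.02 and 5.60 FPKM in control and at 7.10, 7.20 and 7.16 FPKM in bKO. It was the lowest of the 3 in each genotype and showed the smallest difference, again with no overlap between groups. Its mean went from 5.19 ± 0.36 to 7.15 ± 0.049 FPKM, a ratio of 1.38. The log2 fold change of Tnrc6b was 0.40 (SE 0.058) and ranked only 1359 from the highest. In whole islets a different share of cells expressing a gene and a different amount of RNA per cell cannot be told apart, and this holds for every value given here.

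Summed over the family, Tnrc6 mRNA was at 26.3, 28 and 29.8 FPKM in control and at 74.6, 72.4 and 73.1 FPKM in bKO. The summed Argonaute level was 28.2, 26.9 and 27.4 FPKM in control and 24.7, 25.4 and 26.4 FPKM in bKO, slightly lower with no overlap. That direction depends on the scaling between libraries. With total scaling the log2 fold changes of Ago1, Ago2, Ago3 and Ago4 were -0.04, 0.13, 0.15 and 0.04. The Tnrc6 sum per Argonaute sum, in which that scaling cancels, was 0.933, 1.04 and 1.09 in control and 3.02, 2.85 and 2.77 in bKO. FPKM divide by the deposited gene length, 12706, 23677 and 12843 bases for Tnrc6a, Tnrc6b and Tnrc6c. Their coding transcripts used below have 8183, 17332 and 8847 bases. For Ago1, Ago2, Ago3 and Ago4 the gene lengths are 8120, 14031, 16571 and 6947 and the transcripts 7227, 13800, 15595 and 6537. The closeness of the 2 sums in control, like every comparison of level between genes, therefore depends on the length taken. Within the Tnrc6 sum the make-up differed as well. Tnrc6b made up 18.5% ± 0.50 of it in control and 9.76% ± 0.22 in bKO (SD, n = 3), Tnrc6a 50.1% ± 1.5 and 55.5% ± 0.46, and Tnrc6c 31.4% ± 1.4 and 34.7% ± 0.58.

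**Figure D2:**
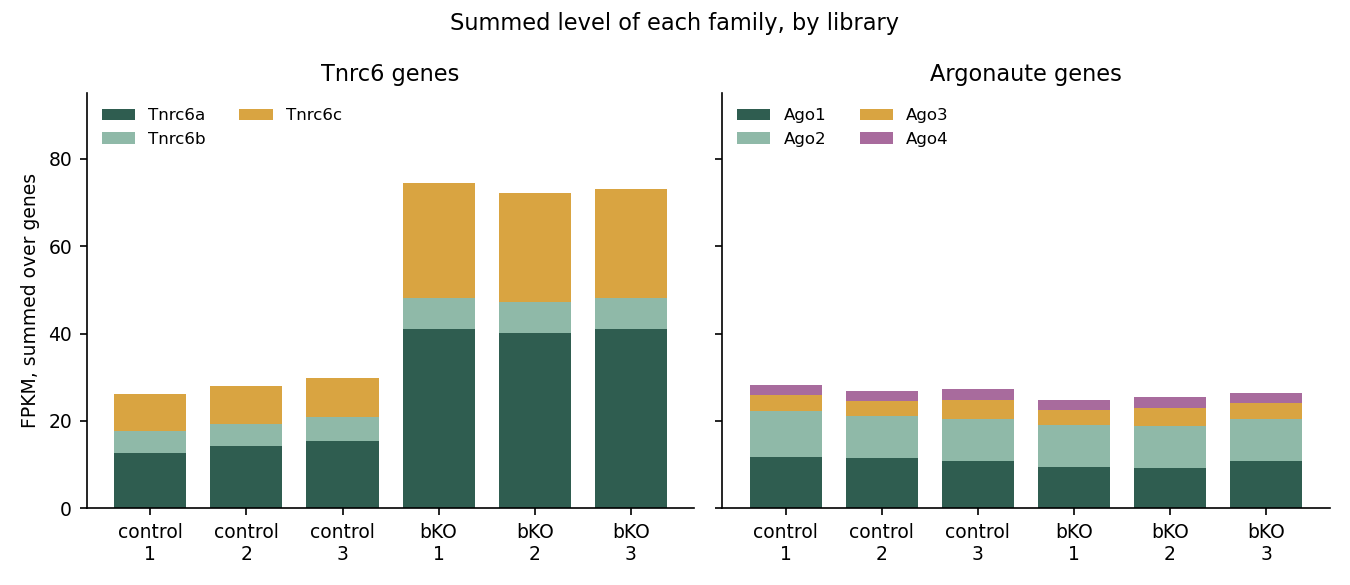
FPKM summed over the 3 Tnrc6 genes and over the 4 Argonaute genes in each library (vertical axis from 0), with 1 colour per gene. The Tnrc6 columns reach 72.4 to 74.6 in bKO against 26.3 to 29.8 in control, and the Argonaute columns stay between 24.7 and 28.2 in all 6 libraries.

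Among the Argonautes, the proteins that hold the miRNA, Ago1 had the highest level in control and overlapped Ago2 in bKO, where it was somewhat lower than in control. Ago1 (chromosome 4, 126435012 to 126468583) was at 11.7, 11.6 and 10.9 FPKM in control and at 9.47, 9.14 and 10.7 FPKM in bKO. The third bKO library came close to the lowest control library without reaching it. The ratio of means was 0.858 and the log2 fold change -0.20 (SE 0.067), which became -0.27 without bKO replicate 3.

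Ago2 (chromosome 15, 73095844 to 73184935), the Argonaute that can itself cut a target RNA, was at 10.6, 9.41 and 9.63 FPKM in control and at 9.47, 9.74 and 9.77 FPKM in bKO. The groups overlapped, with a log2 fold change of -0.03 (SE 0.055). Ago3 (chromosome 4, 126331704 to 126429556) was at 3.60, 3.43 and 4.17 FPKM in control and at 3.64, 4.03 and 3.61 FPKM in bKO, again overlapping (0.01, SE 0.080). Ago4 (chromosome 4, 126489541 to 126533472), the lowest of all 10 members in each genotype, was at 2.27, 2.46 and 2.71 FPKM in control and at 2.09, 2.48 and 2.25 FPKM in bKO, with a log2 fold change of -0.09 (SE 0.082) from only 254 to 312 reads per library. Ago3, Ago1 and Ago4 lie side by side on the minus strand of chromosome 4, with 5456 bases between Ago3 and Ago1 and 20958 between Ago1 and Ago4. Each member's share of the Argonaute sum differed little, Ago1 being at 41.5% ± 1.7 in control and 38.4% ± 2.4 in bKO and Ago2 at 35.9% ± 1.5 and 37.9% ± 0.77.

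The 3 processing genes went different ways. Dicer1 (chromosome 12, 104687742 to 104751952), the nuclease that makes the mature miRNA duplex, was at 10.4, 10.6 and 10.4 FPKM in control and at 8.49, 9.10 and 9.06 FPKM in bKO. All bKO libraries were below all control libraries, with a ratio of 0.849 and a log2 fold change of -0.21 (SE 0.046). Drosha (chromosome 15, 12824815 to 12935291), the nuclease of the microprocessor, was at 8.28, 8.49 and 7.58 FPKM in control and at 7.63, 8.34 and 8.43 FPKM in bKO, with overlapping groups and a log2 fold change of 0.00 (SE 0.062). Dgcr8 (chromosome 16, 18253948 to 18289246), whose own mRNA holds a hairpin that the microprocessor cuts, was at 3.91, 3.39 and 3.83 FPKM in control and at 4.52, 4.75 and 5.17 FPKM in bKO. Its bKO libraries were all above control, with a ratio of 1.30 and a log2 fold change of 0.30 (SE 0.072). Whether the differences of Drosha and Dgcr8 were unequal was not tested.

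In control islets the order of the mean levels was Tnrc6a, Ago1, Dicer1, Ago2, Tnrc6c, Drosha, Tnrc6b, Ago3, Dgcr8 and Ago4. The libraries of Dicer1 and Ago2 overlapped, as did those of Ago3 and Dgcr8, and every other pair of neighbours in that order was separate. In bKO islets the order was Tnrc6a, Tnrc6c, Ago1, Ago2, Dicer1, Drosha, Tnrc6b, Dgcr8, Ago3 and Ago4, and among neighbours only Ago1 and Ago2 overlapped. Tnrc6c thus moved from the fifth to the second place, and Dgcr8 changed places with Ago3.

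The scaling between libraries bears on the small differences and not on the direction of the Tnrc6 genes or Dgcr8. The deposited FPKM carry size factors, and scaling by library totals instead moved the median log2 fold change of all tested genes from -0.01 to 0.13 and the share of upward calls from 44.1% to 83.4%. With that scaling Tnrc6a was at 1.64, Tnrc6c at 1.6, Tnrc6b at 0.55 and Dgcr8 at 0.45, all above the new median. Ago2 (0.13), Ago3 (0.15) and Drosha (0.16) lay near that median, and Ago1 (-0.04), Ago4 (0.04) and Dicer1 (-0.05) lay below it, with the signs of Ago2 and Ago4 turned. Leaving out any 1 library gave 0.25 to 0.34 for Dgcr8 and -0.23 to -0.19 for Dicer1.

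**Figure D3:**
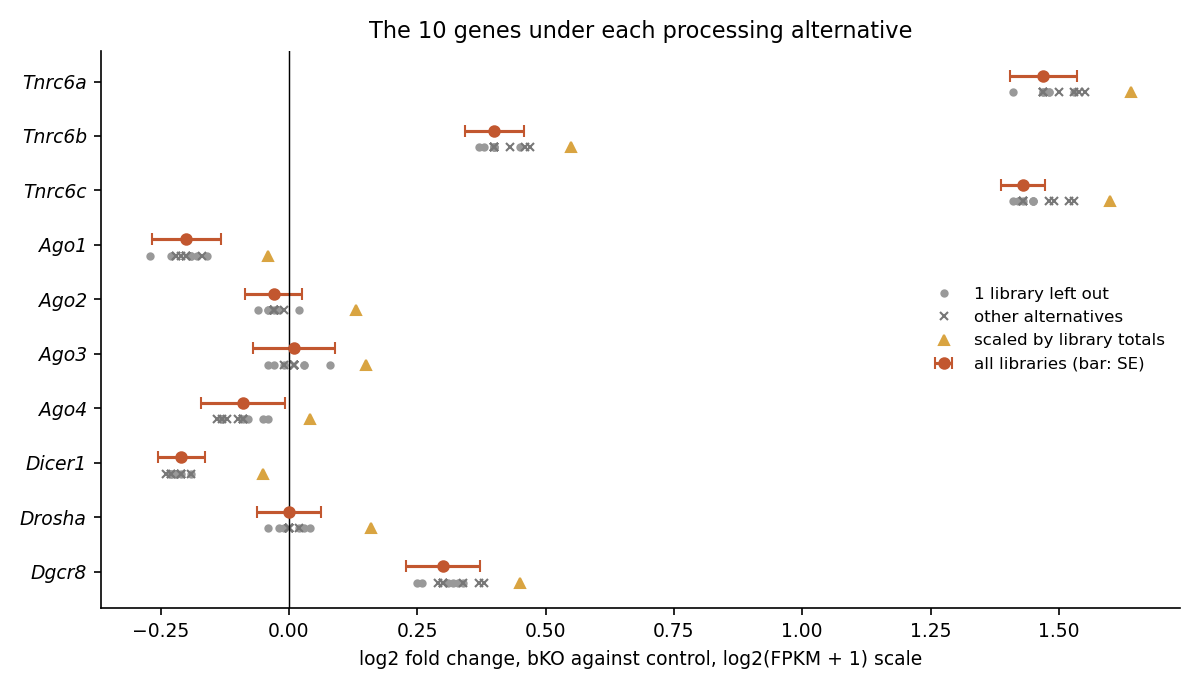
Log2 fold change (horizontal axis, log2(FPKM + 1) scale except for the other pseudocounts and voom) of each gene with all libraries (dot with SE) and under the 14 alternatives. Tnrc6a and Tnrc6c stay between 1.41 and 1.64 and Tnrc6b between 0.37 and 0.55, while scaling by library totals (triangles) moves every gene upward.

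The Tnrc6 genes also stood apart from the other members in 1 feature of their structure, the longest internal exon. This feature was picked from several with the fold changes already known. As genes of 1 family the 3 are not independent cases of it. Coding length did not set them apart, at 5688, 5430 and 5700 bases in Tnrc6a, Tnrc6b and Tnrc6c against 5718 in Dicer1. In the GENCODE vM21 coding transcript with the longest coding sequence, the longest internal exon was 2583 bases in Tnrc6a, 2601 in Tnrc6c and 2340 in Tnrc6b, at percentiles 98.9, 98.9 and 98.7 of the 12440 tested genes with such a transcript, whose median was 207. Only 1.80% of those genes had an internal exon over 2000 bases, and among the 10 members these 3 did. In the Argonautes the longest internal exon was 200 bases in Ago1 and in Ago2, 209 in Ago3 and 316 in Ago4, and in Dicer1, Drosha and Dgcr8 it was 871, 834 and 1000. Length of the 3′ UTR did not separate the families: it was 2345 bases in Tnrc6a, 2588 in Tnrc6c and 11609 in Tnrc6b, against 11064 in Ago2 and 12742 in Ago3. GGACT, a common form of the m6A motif, was searched on the transcript strand and was in 91.3% of those transcripts, with a median of 1.05 per kilobase. It occurred 4 times in Tnrc6a (0.489 per kilobase), 16 times in Tnrc6c (1.81) and 23 times in Tnrc6b (1.33), so the 3 genes did not share a high density. The counts per gene do not show which transcripts the reads came from, and GENCODE lists 5, 7 and 3 retained-intron transcripts for Tnrc6a, Tnrc6b and Tnrc6c. Such transcripts are not particular to them: it lists 4 for Dgcr8, 2 each for Ago1 and Dicer1, 1 for Drosha and 0 for the other Argonautes.

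**Figure D4:**
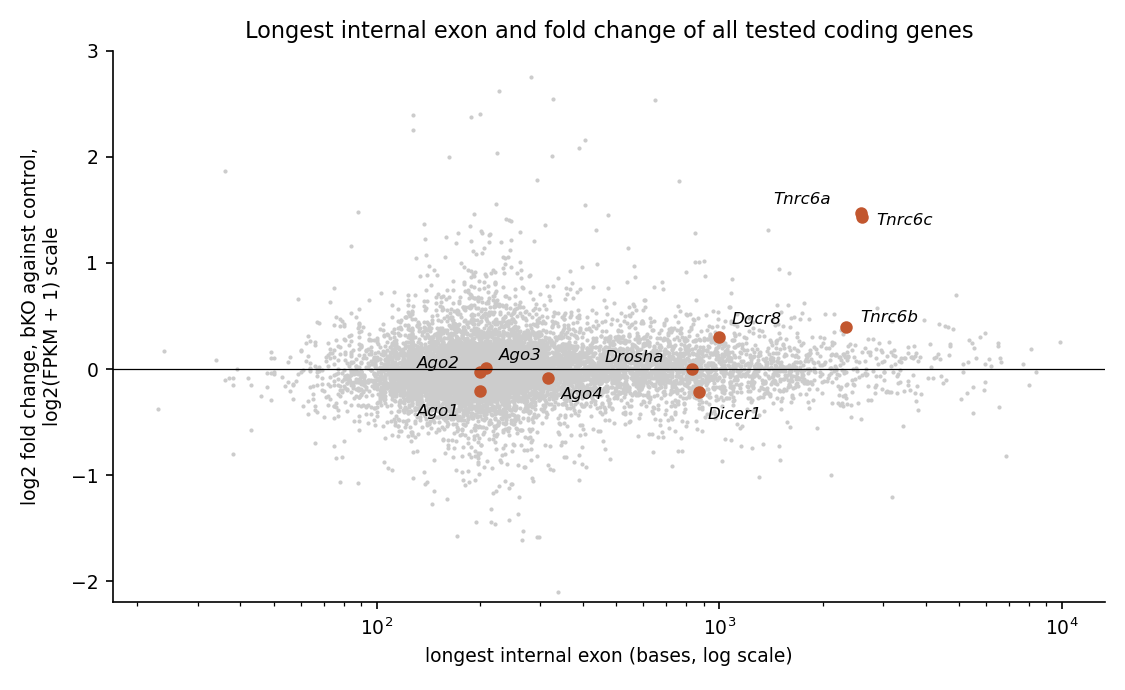
Longest internal exon (horizontal axis, bases, log scale) and log2 fold change (vertical axis) of 11487 tested coding genes with an internal exon (grey), with the 10 members in red; 6 genes lie outside the vertical range. Tnrc6a, Tnrc6b and Tnrc6c are the 3 members to the right of 2000 bases.

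The genes beside the Tnrc6 genes did not show differences of their size. The nearest tested coding genes of Tnrc6a are Rbbp6, 121328 bases away (log2 fold change 0.24, SE 0.050, limma adjusted p = 0.016), and Arhgap17, 83922 bases away (-0.14, SE 0.076). For Tnrc6c they are Sept9, 291964 bases away (-0.08, SE 0.060), and Tmc6, 2549 bases away (0.25, SE 0.075). For Tnrc6b they are Rps19bp1, 446998 bases away (-0.12, SE 0.074), and Adsl, 7405 bases away (0.02, SE 0.071). Only Tmc6 and Adsl are thus close by. A few members share bases with another gene of the annotation, and the sources used here do not say whether counting used the strand. Ago2 overlaps Chrac1 on the other strand over 1711 bases, and Dgcr8 overlaps Trmt2a over 825 bases, with Chrac1 at 11.1 and 8.84 FPKM and Trmt2a at 9.15 and 9.90 FPKM in control and bKO. Gm49512, a sense-intronic RNA inside Tnrc6b, was at 0.352 FPKM in control and 0.996 FPKM in bKO, and Gm45846, a lincRNA that overlaps Tnrc6a on the same strand, at 0.0923 and 0.162 FPKM.

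The other genes of the pathway were taken from lists that hold no member. These lists, like the members, were chosen with earlier results of these data known. Of 74 tested partners, 5 rose and 4 fell (6.76% and 5.41%, against 8.96% and 11.4% of all tested genes), with a median log2 fold change of -0.05 and a range of -0.30 to 0.46. With libraries scaled by their totals 23 rose and 1 fell (31.1% and 1.35%, against 23.5% and 4.68% of all genes tested), and with voom on recovered reads 10 fell (13.5% against 15.2%). None reached the difference of Tnrc6a or Tnrc6c, and none of 3 export and import factors, 3 Dicer partners, 11 tested Argonaute cofactors and 9 tested miRNA tailing and decay factors passed the threshold in either direction.

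Of 8 microprocessor cofactors 1 rose. Ddx17, an RNA helicase that helps DROSHA, was at 75, 79.4 and 84.3 FPKM in control and at 99.1, 93.6 and 98.2 FPKM in bKO. All bKO libraries were above control, and Ddx17 rose with a log2 fold change of 0.28 ± 0.051 (SE, limma adjusted p = 0.010), past the threshold in all 15 settings. Of 8 chaperones that load Argonautes 2 fell and 0 rose. Fkbp5, a co-chaperone of HSP90, fell from 9.51 ± 0.28 to 7.55 ± 0.17 FPKM (-0.30 on the log2 scale, limma adjusted p = 0.0062), past the threshold in all 15 settings. Hsp90ab1, an HSP90 isoform, fell from 325 ± 8.6 to 270.0 ± 11 FPKM (-0.27, limma adjusted p = 0.0077), but not with total scaling (-0.09) or quantile normalization (-0.04).

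The deadenylases are what TNRC6 proteins recruit. The list of 16 CCR4-NOT and PAN2-PAN3 genes also holds Tob1, Tob2 and Btg2, which are not deadenylase subunits. In it 3 rose and 0 fell (18.8% and 0%, against 8.96% and 11.4% of all tested genes). Of those that rose only Pan2 is a subunit. Tob1, an antiproliferative protein that brings CCR4-NOT to mRNA, was at 47.9, 45.6 and 47.6 FPKM in control and at 64.6, 60.3 and 71 FPKM in bKO. No library overlapped, and Tob1 rose with a log2 fold change of 0.46 ± 0.062 (SE, limma adjusted p = 0.0037), past the threshold in all 15 settings. Btg2, of the same protein family, rose by 0.37 (limma adjusted p = 0.022), and Pan2, the catalytic subunit of PAN2-PAN3, by 0.22 (limma adjusted p = 0.044). Btg2 missed the threshold without control replicate 1, control replicate 3, bKO replicate 1 or bKO replicate 3 (0.31 to 0.39). Pan2 missed it without control replicate 1, control replicate 2 or any of the bKO libraries (0.19 to 0.24), and with no filter on low values both missed it. Of 16 silencing, decapping and decay factors 1 rose and 1 fell. Dcp1b, a decapping activator, rose from 4.23 ± 0.37 to 5.28 ± 0.12 FPKM (0.27, limma adjusted p = 0.035), and Pabpc1, the cytoplasmic poly(A)-binding protein, fell from 43.3 ± 3.4 to 35.3 ± 1.1 FPKM (-0.28, limma adjusted p = 0.021). Each passed in 8 of 15 settings. Dcp1b missed the threshold without control replicate 1, control replicate 3 or any of the bKO libraries (0.21 to 0.28) and with no filter. Pabpc1 missed it without control replicate 1, control replicate 2, bKO replicate 1 or bKO replicate 2 (-0.28 to -0.25), with total scaling (-0.11) and with quantile normalization (-0.18).

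**Figure D5:**
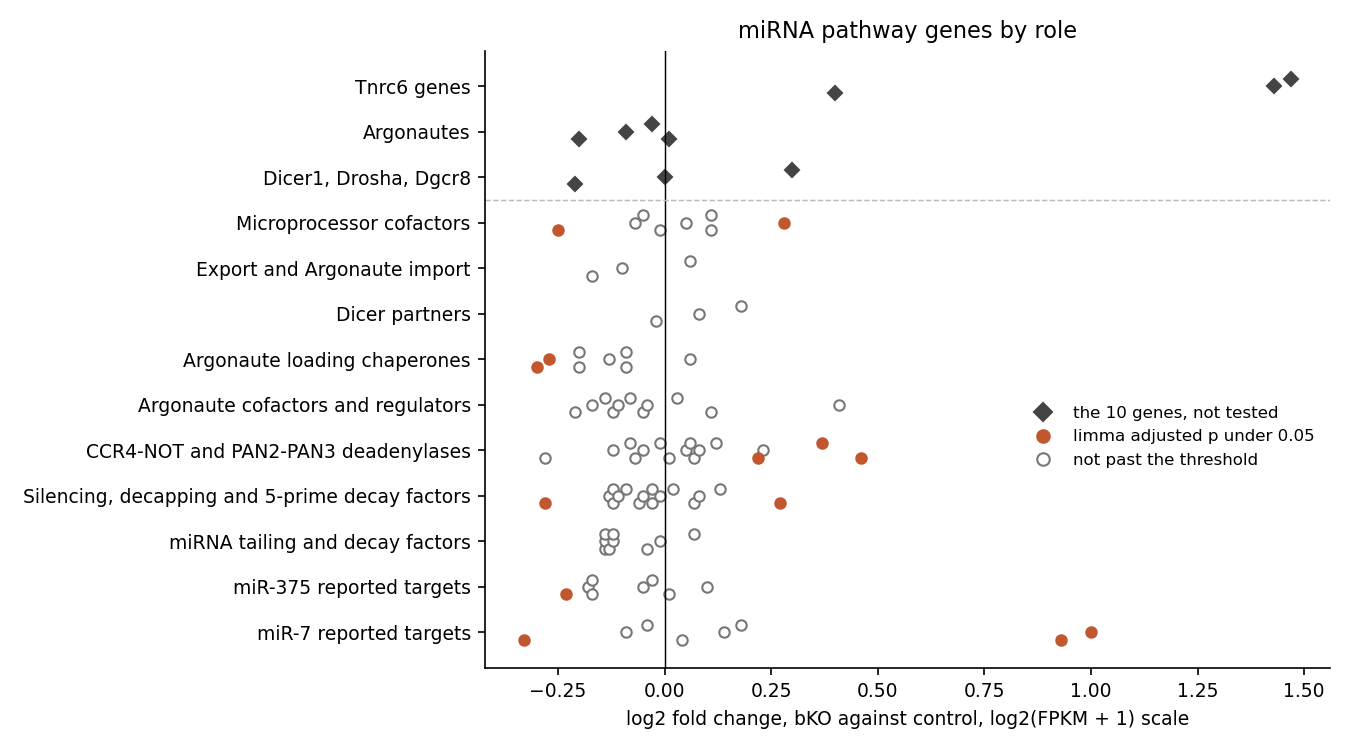
Log2 fold change (horizontal axis) of the members (above the dashed line) and of the partner and target genes by role (below it), 1 point per tested gene, with the 10 members as diamonds and the others filled where the limma adjusted p was under 0.05. The partners lie between -0.30 and 0.46, and Tnrc6a (1.47) and Tnrc6c (1.43) lie to the right of every other gene shown.

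Targets reported for 2 islet miRNAs, also listed with earlier results of these data known, were counted in the same fit. In it 8.96% of all tested genes rose and 11.4% fell. Over both lists of 8 genes, 12.5% rose and 12.5% fell. Of 8 reported targets of miR-375 1 fell and 0 rose, with a median log2 fold change of -0.11. The gene that fell was Mtpn, myotrophin, from 31.5 ± 1.5 to 26.7 ± 1.7 FPKM (-0.23, limma adjusted p = 0.035), in 7 of 15 settings. Mtpn missed the threshold without control replicate 1, control replicate 3, bKO replicate 1 or bKO replicate 2 (-0.22 to -0.19), with no filter, with total scaling (-0.06) and with quantile normalization (-0.15). Of 8 reported targets of miR-7 2 rose and 1 fell, with a median of 0.09. The mature miR-7a from RefSeq is given with its seed, bases 2 to 8, in capitals, followed by the first seed match in the 3′ UTR of Cplx1, a gene of this list that rose, with the match in capitals.

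mmu-miR-7a-5p: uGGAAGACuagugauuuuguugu

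Cplx1 site: tggaccattcgctctGTCTTCCtgtctgtg

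The seed match GTCTTCC was in the 3′ UTR of 5 of the 7 genes with an annotated one (Phactr1 has none in the transcript used), Cplx1 holding 4 copies, and in 12.1% of 12188 tested genes with a 3′ UTR, whose median length was 967 bases against 1556 in those 7. Seed matches can have a part in how targets come to be reported, so nothing is read from these shares. Cplx1, complexin 1, a regulator of vesicle fusion, had 1, 3 and 5 reads in control and 51, 38 and 54 reads in bKO. It rose from 0.083 ± 0.056 to 1.17 ± 0.19 FPKM (limma adjusted p = 0.0023). With so few control reads its log2 fold change depends on the scale: it was 0.83 to 3.78 over the settings, all past the threshold, and Cplx1 was not tested with a filter of 1 FPKM. Basp1, a membrane-attached signalling protein with no seed match in the transcript used, was at 5.56, 5.81 and 5.35 FPKM in control and at 11.7, 10.2 and 12.7 FPKM in bKO, and rose by 0.93 (SE 0.080, limma adjusted p = 0.00074). Phactr1, an actin and phosphatase regulator, fell by 0.33 (limma adjusted p = 0.010), but not with total scaling (-0.16). The other 5 genes of the list did not pass the threshold, and mature miRNAs were not measured here.

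The libraries held 16863329 to 18240339 recovered reads, and Ythdc1 was at 5.76, 6.46 and 6.18 FPKM in control and at 3.81, 3.79 and 3.87 FPKM in bKO (log2 fold change -0.56, limma adjusted p = 0.0014). Markers of islet cell types differed between the groups beside the members. Of 10 beta-cell markers 7 fell and 1 rose, with a sum of 203000 to 225000 FPKM in control and 132000 to 141000 in bKO. That sum was mostly Ins1 and Ins2, with means of 61100 and 134000 FPKM in control and 34500 and 84800 in bKO. Pdx1 and Iapp did not pass the threshold (ratios of bKO to control means 1.05 and 0.869), and Ucn3 rose (1.2). Of 8 macrophage markers 4 fell (sum 176 to 196 and 106 to 129 FPKM), of 8 endothelial markers 5 rose (150 to 173 and 194 to 198), and of 5 delta and PP markers 2 rose (9910 to 12100 and 16300 to 19400). The delta and PP markers that rose were Ppy and Pyy (ratios of bKO to control means 2.16 and 1.82). Sst, the delta-cell hormone gene (1.11), Hhex (1.29) and Rbp4 (0.934) did not pass the threshold. Of 6 Schwann markers 3 rose (2.8 to 4.68 and 5.56 to 7.02), and of 5 lymphocyte markers, 1 of them tested, 1 fell (4.11 to 6.89 and 0.719 to 1.77). The lymphocyte sum was nearly all from that 1 gene, Cd79a, with 95 to 171 reads in control and 19 to 44 in bKO. The other lymphocyte markers had 0 to 5 reads per library, so their direction cannot be read. The summed levels of these 6 lists did not overlap between groups. Some of these counts depend on single libraries or the scaling: 1 to 3 endothelial markers rose when 1 library was left out (any of the 6) and 8 with total scaling, and 1 to 2 Schwann markers rose when 1 was left out. Beta-cell markers that fell numbered 5 to 8 and macrophage markers 3 to 7 over the 14 alternatives. Of 6 alpha-cell markers 2 rose (18500 to 22400 and 16900 to 20200), of 6 mesenchymal markers 1 rose (46.9 to 52.3 and 47.6 to 51.6), and of 8 acinar (43.7 to 143 and 91.1 to 127) and 5 duct markers (31.2 to 35.5 and 34 to 36.2) 0 passed the threshold. The alpha-cell sum was mostly Gcg, which did not pass (ratio 0.941), while the alpha-cell markers that rose were Irx2 (1.33) and Gc (2.33). Without control replicate 3, 3 acinar markers rose, and with total scaling 2 duct markers and 4 delta and PP markers rose. The 1 beta-cell marker that rose was not past the threshold without control replicate 2, control replicate 3 or any of the bKO libraries, and 1 alpha-cell marker rose in place of 2 without control replicate 1, control replicate 2, bKO replicate 1 or bKO replicate 2. The lymphocyte marker Cd3g and the acinar factor Ptf1a had 0 reads in all libraries. The part of these differences in those of the members was not tested.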

How the data were processed

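Poly(A) RNA of 3 control and 3 bKO islet samples was sequenced as paired reads, per the labels' protocols. The submitters' processing notes name CASAVA, HISAT2 2.0.5 (an aligner), featureCounts 1.5.0-p3 (a read counter), DESeq2 1.20.0 and the build GRCm38, with no role or settings. The sources used here do not give the annotation release or the handling of reads with several matches.

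The authors deposited FPKM per gene, not read counts. Multiplying a value by its gene length and by a factor common to the library returned whole reads, with a tolerance of 0.01, for 100% of values, which gives each library's depth. These FPKM carry size factors of 0.923 to 1.10. 0 columns of other samples were present. Libraries of 1 group differed beyond sampling noise (chi-square per degree of freedom 4.09 to 6.50).

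limma 3.58.1 (R 4.3.3) with a mean-variance trend was fitted to log2(FPKM + 1), bKO against control, for the 15717 genes that reached 0.5 FPKM in 3 or more libraries, with Benjamini-Hochberg adjustment over all of them and a threshold of 0.05. This scale understates the change of low genes. All 10 members passed the filter. In 1 run on simulated data the fit recovered most of the known changes, with a share of false calls above the nominal level. The members and all lists were chosen with earlier results of these data known. Named genes are the members, Ythdc1, and up to 4 called genes per partner or target list with the smallest adjusted p. Some cell-type markers are named as well. The values of 1 partner gene are not reported here. The genes next to the Tnrc6 genes, the genes that overlap members and the genes with long internal exons were added after the values were seen, as was the choice of motifs. Gene structure came from GENCODE vM21, on GRCm38, in which 53499 of the table's genes have the same start and end. Other steps ran in Python 3.11.15 with numpy 2.4.6, pandas 2.3.3 and matplotlib 3.10.9. Alternatives were total scaling, quantile normalization, no filter, an FPKM of at least 1, pseudocounts of 0.1 and 0.5, voom on recovered reads, the replicate number as a block, and leaving out each library.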

Additional observations from a re-analysis of the deposited data

How the results depend on the processing

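Over the 14 alternatives the log2 difference was 1.41 to 1.64 for Tnrc6a, 0.37 to 0.55 for Tnrc6b and 1.41 to 1.6 for Tnrc6c, as a description of refits of the same libraries. Over all genes, 1408 were higher and 1784 lower in bKO. Scaling by library totals gave 3702 and 737, and leaving out 1 library gave 852 to 1179 and 1037 to 1604. The replicate numbers did not pair the libraries (correlation of deviations -0.07 to -0.01 for equal and -0.02 to 0.06 for unequal numbers), and with the replicate block the counts were 925 and 1152, and Btg2, Pan2, Dcp1b, Pabpc1 and Mtpn were not past the threshold (limma adjusted p = 0.063 to 0.11). With that block 2 endothelial markers, 1 Schwann marker and 0 beta-cell markers rose. Partners that rose, 5 in all, were 23 with total scaling, 2 with no filter, 2 with the replicate block and 2 to 4 without 1 library. Partners that fell, 4 in all, were 1 with total scaling, 2 with quantile normalization, 10 with voom and 2 to 5 without 1 library. Targets that rose, 2 in all, were 4 with total scaling, 1 with a filter of 1 FPKM, which Cplx1 did not pass, and 2 without any 1 library. Targets that fell, 2 in all, were 0 with total scaling, 1 with quantile normalization, no filter or the replicate block, 4 with voom and 1 to 3 without 1 library. The cause of these shifts was not tested, beyond the fewer samples when a library is left out. Depth limits Cplx1 (1 to 5 reads in control libraries) and Ago4.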

Other observations

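Since the 3 Tnrc6 genes share a long internal exon, the other tested genes with one were counted, a choice made after the values were seen. Of 221 further genes whose longest internal exon exceeds 2000 bases, 30 rose and 26 fell (13.6% and 11.8%), with a median log2 fold change of 0.04. Of 12216 genes without such an exon, 8.82% rose and 13.2% fell, with a median of -0.02. With total scaling the medians were 0.18 and 0.12. No test of the difference was made. After Tnrc6a and Tnrc6c, the largest rise in the group with long internal exons was that of Ahdc1, which has an internal exon of 4902 bases. It was at 9.94, 9.20 and 9.11 FPKM in control and at 16.4, 15.3 and 15.9 FPKM in bKO (log2 fold change 0.70, SE 0.051, limma adjusted p = 0.00044). The next were Dnhd1 (0.58), Atxn1 (0.52) and Lrrc8b (0.52), all below the Tnrc6a and Tnrc6c values and above that of Tnrc6b (0.40).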
